A study of Mus musculus with 24 samples.

Results

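The serum amyloid A family in mouse liver consists of 4 measured genes, Saa1, Saa2, Saa3 and Saa4, among 18634 genes tested. Its members were all non-control spots that carried one of these gene names, and each name belonged to 1 probe on the array, so no choice between probes was needed. The livers came from 24 C57BL/6JRcc mice, an inbred laboratory strain, all labelled female and 6 weeks old, and 1 array was hybridised per mouse. From 3 weeks of age, 12 mice ate a diet with equal parts of galactose and glucose as the monosaccharides (GLU+GAL), and 12 mice ate a diet with glucose as the monosaccharide (GLU). Monosaccharides supplied 32% of energy in both diets, beside 32% from starch, 20% from protein and 16% from fat. All mice were housed singly, and the right liver lobe was taken on postnatal day 42 after food had been withdrawn, so both diets were read in a food-deprived state.

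Serum amyloid A proteins are small apolipoproteins that travel on high-density lipoprotein. Saa1 and Saa2 are secreted by hepatocytes as major acute phase proteins, and their transcription in liver is driven by interleukin-1, interleukin-6 and tumour necrosis factor through NF-kappaB, C/EBP and STAT factors. Saa3 is inducible as well and is known in the mouse also from macrophages and adipocytes, whereas Saa4 is the constitutive member of the family. The comparison of the inducible genes with Saa4 therefore sets transcripts that follow inflammatory signals beside a relative that is known to follow them little.

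All 4 genes lie next to each other on mouse chromosome 7, in the order Saa3, Saa4, Saa1, Saa2, with Saa2 on the plus strand and the others on the minus strand. The 250 bases before each transcription start are shown because Saa1, Saa2 and Saa3 were correlated across mice and Saa4 was not found to be. The sequences are those of RefSeq for GRCm38.p6, from chr7:46742981-46743230 for Saa1, chr7:46751583-46751832 for Saa2, chr7:46715677-46715926 for Saa3 and chr7:46732604-46732853 for Saa4, each read on the strand of its gene. Capitals mark matches to an NF-kappaB-like motif, GGG and CC with any 5 bases between them, or a C/EBP-like motif, TTNNGNAA, on either strand.
Saa1: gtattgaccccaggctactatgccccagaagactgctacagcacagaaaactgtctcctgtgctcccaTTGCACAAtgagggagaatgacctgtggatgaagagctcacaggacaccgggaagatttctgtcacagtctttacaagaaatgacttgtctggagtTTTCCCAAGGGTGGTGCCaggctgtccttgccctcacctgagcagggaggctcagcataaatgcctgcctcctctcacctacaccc
Saa2: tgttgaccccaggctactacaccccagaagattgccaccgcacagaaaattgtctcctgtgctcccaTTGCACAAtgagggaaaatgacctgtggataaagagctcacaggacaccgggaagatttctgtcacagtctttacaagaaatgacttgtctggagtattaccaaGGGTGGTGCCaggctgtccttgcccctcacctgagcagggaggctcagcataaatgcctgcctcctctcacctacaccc
Saa3: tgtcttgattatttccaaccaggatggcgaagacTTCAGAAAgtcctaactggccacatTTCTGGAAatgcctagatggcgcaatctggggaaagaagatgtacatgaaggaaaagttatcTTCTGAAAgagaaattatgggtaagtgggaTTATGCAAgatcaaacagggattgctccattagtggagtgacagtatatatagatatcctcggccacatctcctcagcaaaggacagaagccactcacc
Saa4: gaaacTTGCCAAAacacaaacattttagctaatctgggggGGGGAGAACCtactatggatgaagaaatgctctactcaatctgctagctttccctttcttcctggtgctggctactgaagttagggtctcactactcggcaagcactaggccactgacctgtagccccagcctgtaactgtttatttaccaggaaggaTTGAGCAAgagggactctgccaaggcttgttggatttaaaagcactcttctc

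The Saa1 and Saa2 windows were 94.8% identical over 251 aligned columns, with 11 substitutions and 2 gap columns. The other 5 pairs of windows were 46.8% to 52.4% identical. One NF-kappaB-like match stood in each of the Saa1, Saa2 and Saa4 windows and none in that of Saa3. In Saa1 and Saa2 the match had the same letters and began at position -78 in Saa1 and -79 in Saa2, counted from the start. C/EBP-like matches numbered 2 in Saa1, 1 in Saa2, 4 in Saa3 and 2 in Saa4. A STAT-like motif, TTCNNNGAA, and a TATA-like motif, TATAAA, had no match in any of the 4 windows. No matches overlapped. Such short patterns are common: of 32851 mouse promoter windows of the same length, 45.8% held the NF-kappaB-like motif, 36.8% the C/EBP-like, 7.02% the STAT-like and 12.4% the TATA-like one. The matches describe letters in these windows and were not tested for binding.

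The probes are 60 bases long, and the array annotation places them on chromosome 7 of mm9, an older build than that of the promoters. Saa1 and Saa2 transcripts are known to be very alike, which the sequences shown here do not bear on. Those of Saa1 (chr7:53996070-53996129, minus strand) and Saa3 (chr7:53967559-53967618, minus strand) are shown because the readout depends on the probe.
Saa1: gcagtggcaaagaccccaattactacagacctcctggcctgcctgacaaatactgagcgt
Saa3: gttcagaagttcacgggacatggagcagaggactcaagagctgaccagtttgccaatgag

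The probe of Saa1 starts at position 346 of its transcript, that of Saa3 at 280, that of Saa2 at 460 and that of Saa4 at 1680, as the array annotation gives them. No pair of the 4 probes shared a run of more than 6 bases, and the Saa1 and Saa2 probes shared 5. Whether each probe also binds the other gene's transcript could not be checked on the probe sequences alone, so shared signal of Saa1 and Saa2 cannot be told apart from parallel change.

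All 4 probes were well above background in Cy5, the dye of the individual mouse, on 12 of 12 GLU+GAL arrays and 12 of 12 GLU arrays. They were also above it in Cy3, the dye of a pool of all mice, on 24 of 24 arrays, and no spot was saturated or flagged. Across arrays, 46.6% to 51.3% of non-control spots were well above background in Cy5 and 36.5% to 47.8% in Cy3. The number of arrays limits the precision of the comparisons between diets. Of 10 hepatocyte markers, all 10 were measured. In measures that did not use the diets, 2 arrays stood apart. GLU+GAL 4 had the widest log ratios, with an SD of 0.453 against 0.315 on the next array. GLU+GAL 12, labelled female, gave a signal well above background for the Y-linked genes Eif2s3y and Ddx3y but not for Xist. Differences without both arrays are given beside the results, a choice made after seeing the data.

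The 3 inducible genes were lower in GLU+GAL livers than in GLU livers on average, at 0.793-fold for Saa1, 0.765-fold for Saa2 and 0.686-fold for Saa3. Saa4 differed little, at 0.968-fold. No member passed the adjusted threshold of 0.05 in limma, where 0% of the 18634 genes passed it. At an unadjusted p under 0.05, 3 of the 4 members were lower in GLU+GAL, beside 2.66% of all genes, and none was higher, beside 1.65% of all genes. This count is a description only. The members were chosen with earlier results of these data known, and Saa1 and Saa2 may share signal. The inducible genes were also high or low in largely the same mice, and Saa4 was not correlated with them. All values below are log2 ratios of a mouse's liver over the pool, so a difference of -1 would be a halving.

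Saa3 gave the largest difference of the 4. Its log2 ratio was -0.85 at the lowest, -0.27 at the median and 0.41 at the highest in GLU+GAL livers, against -0.25, 0.18 and 1.00 in GLU livers. The groups overlapped, but 7 of 12 GLU+GAL mice lay below the lowest GLU mouse and 3 GLU mice above the highest GLU+GAL mouse. That highest mouse, GLU+GAL 3, decided the second count, and without it 9 GLU mice lay above all GLU+GAL mice. Saa3 averaged -0.30 ± 0.32 in GLU+GAL and 0.24 ± 0.39 in GLU (SD, n = 12 each), and 11 of 12 GLU+GAL mice were below the GLU mean. The difference was -0.54 ± 0.14 (SE), with a 95% interval from -0.82 to -0.27. In limma's fit over all genes its unadjusted p was 0.000415 and its adjusted p 0.743, and a permutation test over mice gave an unadjusted p of 0.00096. Without GLU+GAL 4 and GLU+GAL 12 the difference was again -0.54.

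Saa2, a secreted hepatic acute phase apolipoprotein, ran from -0.68 to 0.38 with a median of -0.32 in GLU+GAL livers, against -0.53 to 0.62 with a median of 0.13 in GLU livers. Here 4 GLU+GAL mice lay below every GLU mouse and 3 GLU mice above every GLU+GAL mouse. Without GLU+GAL 3 the second count was 7, and without GLU 1, the lowest GLU mouse, the first was 6. The means were -0.30 ± 0.31 in GLU+GAL and 0.09 ± 0.38 in GLU (SD, n = 12 each). The difference of -0.39 ± 0.13 (SE; 95% interval -0.65 to -0.12) had an unadjusted p of 0.00637 and an adjusted p of 0.998 in limma, and 10 of 12 GLU+GAL mice were below the GLU mean. A permutation test over mice gave an unadjusted p of 0.0131. The difference was -0.38 without the 2 arrays that stood apart.

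Saa1, its close relative, ran from -0.60 to 0.44 with a median of -0.25 in GLU+GAL livers, against -0.43 to 0.57 with a median of 0.09 in GLU livers. The groups overlapped, with 3 GLU+GAL mice below the lowest GLU mouse and 3 GLU mice above the highest GLU+GAL mouse. Single mice set both counts, which were 8 below without GLU 1 and 5 above without GLU+GAL 3. The means were -0.21 ± 0.30 in GLU+GAL and 0.13 ± 0.32 in GLU (SD, n = 12 each). Saa1 differed by -0.33 ± 0.12 (SE; 95% interval -0.58 to -0.09), with an unadjusted p of 0.00879 and an adjusted p of 0.999 in limma, and again 10 of 12 GLU+GAL mice were below the GLU mean. The permutation test over mice gave an unadjusted p of 0.0168. Without the 2 arrays the difference was -0.34.

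Saa4, the constitutive member, ran from -0.15 to 0.36 with a median of 0.05 in GLU+GAL livers, against -0.12 to 0.45 with a median of 0.06 in GLU livers. The ranges nearly coincided, and 6 of 12 GLU+GAL mice were below the GLU mean. The means were 0.07 ± 0.18 in GLU+GAL and 0.12 ± 0.19 in GLU (SD, n = 12 each), a difference of -0.05 ± 0.07 (SE). Its 95% interval, from -0.20 to 0.11, held 0. The unadjusted p was 0.535 in limma and 0.542 in the permutation test over mice. Without the 2 arrays the difference was -0.08.

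**Figure D1:**
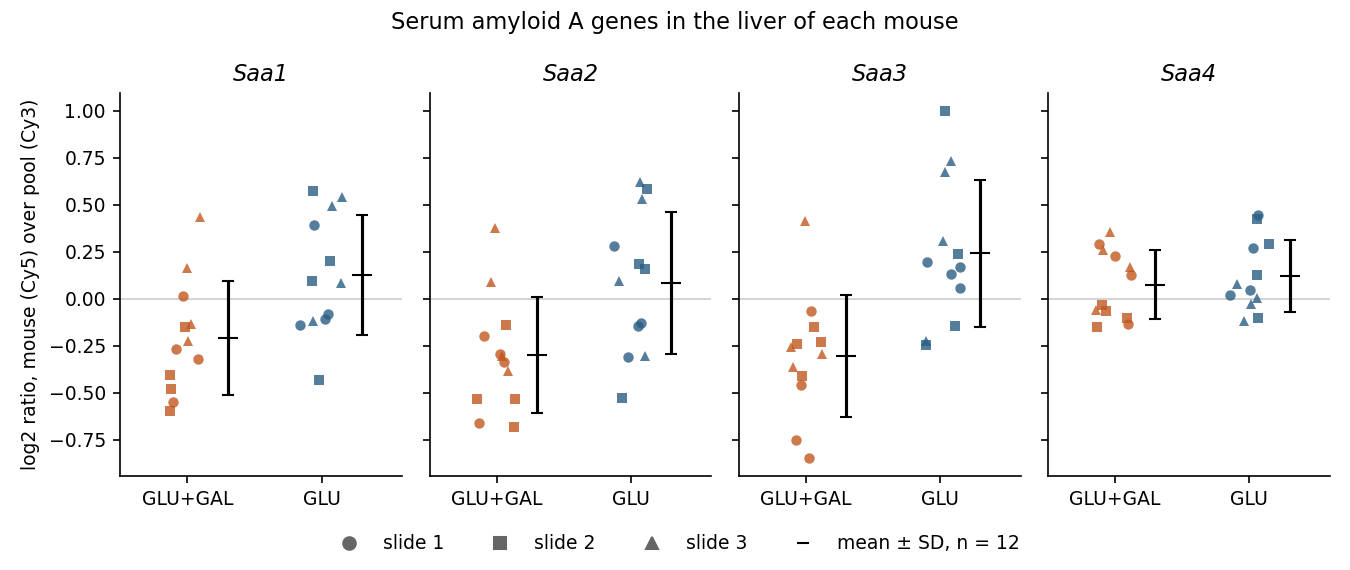
Log2 ratio of each mouse's liver RNA over the pool for the 4 genes, 1 point per mouse, with GLU+GAL left of GLU and the mean ± SD beside the points (n = 12). Marker shapes give the slide. For Saa3, 7 GLU+GAL mice lie below the lowest GLU mouse, and for Saa4 the ranges nearly coincide.

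The inducible genes were set against Saa4 within each mouse, by subtracting the log2 ratio of Saa4 and comparing the diets. The difference of Saa3 minus that of Saa4 was -0.50 ± 0.18 (SE), with a 95% interval from -0.87 to -0.12 that left out 0. For Saa2 this value was -0.34 ± 0.17, with an interval from -0.68 to 0.0039, and for Saa1 -0.29 ± 0.15, with an interval from -0.60 to 0.02, both of which held 0. With GLU+GAL 4 and GLU+GAL 12 left out the values were -0.46 for Saa3, -0.29 for Saa2 and -0.26 for Saa1. Within slides 1, 2 and 3 they were -0.60, -0.20 and -0.69 for Saa3, -0.23, -0.30 and -0.49 for Saa2, and -0.23, -0.25 and -0.39 for Saa1. With the slide as a block the interval for Saa2 left out 0 (-0.67 to -0.01) and that for Saa1 did not (-0.58 to 0.0063). With the replicate number as a block both left out 0, at -0.65 to -0.03 for Saa2 and -0.57 to -0.0027 for Saa1. Whether these intervals held 0 thus depended on the fit for both genes.

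The arrays sat on 3 slides of 8, with 4 mice of each diet on each. Saa3 differed by -0.67 on slide 1, -0.47 on slide 2 and -0.50 on slide 3. Saa2 differed by -0.29, -0.57 and -0.29, and Saa1 by -0.30, -0.52 and -0.19, on the same slides. Every one of these 9 within-slide differences was below 0, but the genes were correlated and read in the same mice, so they are not 9 separate results. Of these 9, only Saa3 on slide 1 and Saa1 and Saa2 on slide 2 had an unadjusted p under 0.05 in limma. On slide 3 the unadjusted p was 0.326 for Saa1, 0.224 for Saa2 and 0.0572 for Saa3. Saa4 differed by -0.07, -0.27 and 0.20, so its direction was not the same on the 3 slides. Its unadjusted p in limma was 0.594, 0.0333 and 0.0913 on the same slides, so Saa4 too was under 0.05 on slide 2. On slide 2 Saa4 averaged -0.09 ± 0.05 in GLU+GAL and 0.18 ± 0.23 in GLU, and on slide 3 0.18 ± 0.18 in GLU+GAL and -0.02 ± 0.08 in GLU (SD, n = 4 each).

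**Figure D2:**
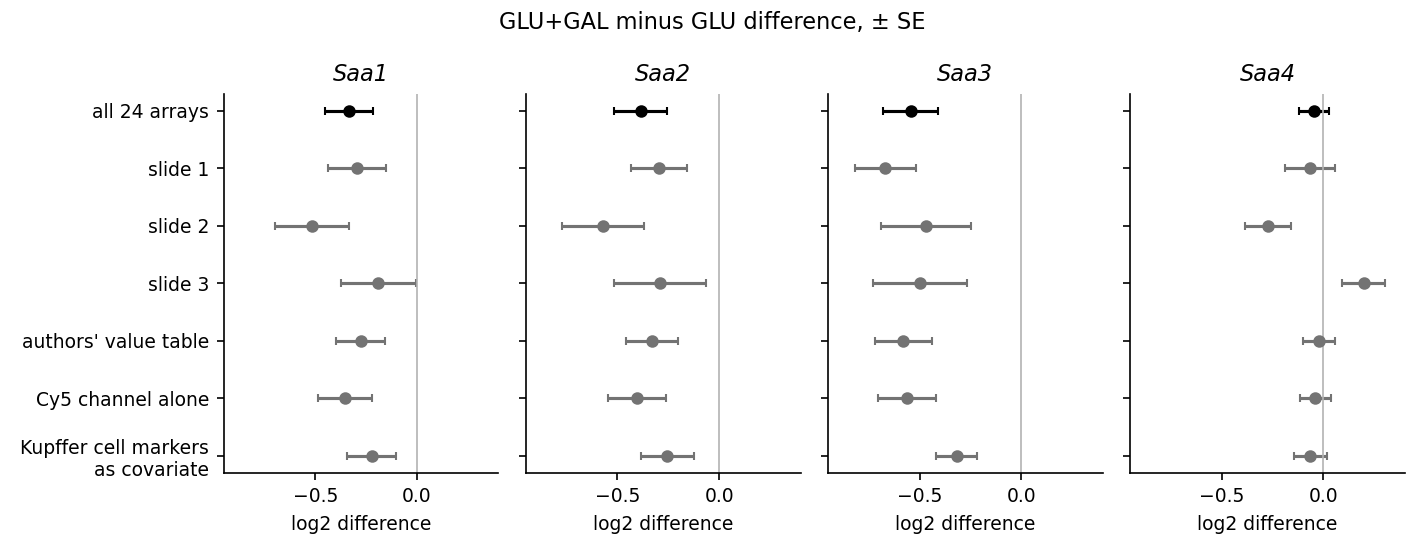
GLU+GAL minus GLU difference of each gene on the log2 scale, with its SE, over all 24 arrays, within each slide, in the authors' value table, in Cy5 alone and with the mean of the Kupffer cell markers as a covariate. Saa1, Saa2 and Saa3 lie below 0 in all 7 rows, and Saa4 lies at 0.20 on slide 3.

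The inducible genes varied widely between mice of one diet. The SD within diets was 0.36 for Saa3, 0.34 for Saa2, 0.31 for Saa1 and 0.19 for Saa4, against a median of 0.17 over all genes. Only 4.18% of genes had a larger SD than Saa3, 4.74% a larger one than Saa2 and 6.70% a larger one than Saa1, while 37.9% had a larger one than Saa4. From the lowest to the highest of the 24 mice, Saa3 spanned 3.60-fold, Saa2 2.46-fold, Saa1 2.25-fold and Saa4 1.51-fold. Saa3 and Saa1 were highest in mouse GLU 11 and Saa2 in GLU 3, and Saa1 and Saa2 were lowest in GLU+GAL 1 and Saa3 in GLU+GAL 9.

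The same mice tended to be high or low for all inducible genes. GLU+GAL 3, GLU 3, GLU 10 and GLU 11 were among the 5 highest mice for each of Saa1, Saa2 and Saa3. Among the 12 lowest mice for each of the 3 genes were 8 GLU+GAL mice and 2 GLU mice, and among the 12 highest were 1 GLU+GAL mouse and 9 GLU mice. The GLU+GAL mouse with high values was GLU+GAL 3, at 0.44 for Saa1, 0.38 for Saa2 and 0.41 for Saa3, and its Saa4 was at -0.06.

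Across the 24 mice Saa1 and Saa2 were correlated at Pearson's r = 0.979 (Spearman's rho = 0.955), Saa2 and Saa3 at 0.806 (0.747) and Saa1 and Saa3 at 0.801 (0.776). Over the 6 pairs of members, permutation tests with 100000 resamples gave these 3 an adjusted p of 3e-05 to 4e-05, and 1e-05 is the smallest unadjusted p they can give. Without the 2 mice farthest from the median of the first gene, r was 0.971, 0.712 and 0.717 in the same order. Because a shared difference between diets adds to such an r, the diet means were also subtracted, which left 0.972, 0.727 and 0.727.

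Within diets these r were above 0 in both groups, though with 12 mice the pairs with Saa3 did not pass the adjusted threshold in GLU+GAL (adjusted permutation p = 0.0574 and 0.0785). Saa1 with Saa2 gave r = 0.969 in GLU+GAL mice and 0.979 in GLU mice, Saa2 with Saa3 0.609 and 0.807, and Saa1 with Saa3 0.670 and 0.774. Within the 3 slides, Saa1 with Saa2 ranged from 0.965 to 0.995, Saa2 with Saa3 from 0.632 to 0.917 and Saa1 with Saa3 from 0.691 to 0.895. The log2 ratio of Saa1 minus that of Saa2 was 0.09 ± 0.08 in GLU+GAL mice and 0.04 ± 0.09 in GLU mice (SD, n = 12 each), a spread far below that of either gene.

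Saa4 was not correlated with the others beyond what permutation gave. Its r was 0.05 with Saa1 (adjusted p = 0.988), -0.00018 with Saa2 (adjusted p = 0.999) and -0.12 with Saa3 (adjusted p = 0.850), in permutation tests adjusted over the 6 pairs. With diet means subtracted r was -0.02, -0.08 and -0.26. Within slides 1, 2 and 3, of 8 mice each, the sign changed. There r was -0.06, 0.39 and -0.34 with Saa1, -0.08, 0.36 and -0.35 with Saa2, and 0.13, 0.09 and -0.48 with Saa3. The lowest unadjusted permutation p within a slide was 0.223. Leaving out 1 mouse moved the r with Saa1 over all mice between -0.03 and 0.11.

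**Figure D3:**
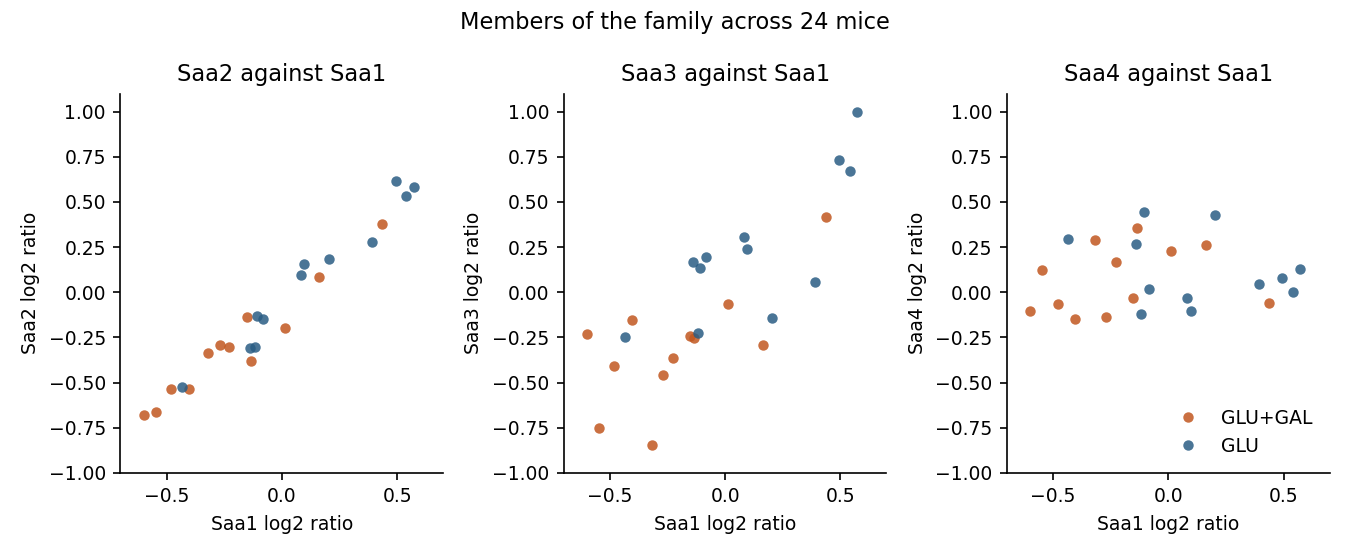
Log2 ratio of Saa2, Saa3 and Saa4 plotted against that of Saa1, 1 point per mouse, for 12 GLU+GAL and 12 GLU mice. The points of Saa2 lie close to a line (r = 0.979), those of Saa3 scatter more (0.801), and those of Saa4 show no slope (0.05).

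Genes with the most similar pattern across mice were taken as the 5 with the highest r with each member over 24 mice after subtracting diet means, the other members aside. Only genes with a value on all 24 arrays were ranked. For Saa1 they were Mpeg1 (r = 0.743), a pore-forming protein of macrophages, the endoplasmic reticulum protein Erlin1 (0.735), the LIM protein Csrp1 (0.717), the mechanosensitive channel Piezo1 (0.701) and a non-coding transcript without a symbol (0.697). For Saa2 they were Csrp1 (0.737), Erlin1 (0.728), Mpeg1 (0.708), Tlr13 (0.682), an endosomal receptor for bacterial RNA, and LOC100041708 (0.676). Saa1 and Saa2 thus shared 3 of these genes, and all had a lower r than the 0.972 between the pair itself. Erlin1 differed between diets by -0.24 ± 0.07 (SE, unadjusted p = 0.00188 in limma).

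For Saa3 they were the chemokine Ccl5 (r = 0.854), the G protein regulator Rgs2 (0.843), the C-type lectin Clec1b (0.841), the NADPH oxidase subunit Cyba (0.836) and the leukocyte surface protein Cd52 (0.835). Of these Cyba differed between diets by -0.20 ± 0.09 (SE, unadjusted p = 0.0361 in limma). Saa4 went with Ccdc50 (0.769), Cgnl1 (0.752), Itm2b (0.744), Nbeal1 (0.730) and Cdk8 (0.724), and none of these stood on the lists of the other members. Among them Itm2b differed between diets by -0.11 ± 0.05 (SE, unadjusted p = 0.0432 in limma). These correlations, the highest among the tested genes with a value on all 24 arrays, are a description only.

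Kupffer cells are the resident macrophages of the liver. Of 13 Kupffer cell markers, all measured, 12 were lower in GLU+GAL and 1 higher, beside 49.2% of all genes lower. The median difference was -0.21, beside 0.0012 over all genes. None had an adjusted p under 0.05, and 6 were lower at an unadjusted p under 0.05, beside 2.66% of all genes. They were the scavenger receptor Marco (-0.54 ± 0.21), the complement genes C1qc (-0.23 ± 0.09) and C1qa (-0.20 ± 0.10), the lectin Clec4f (-0.22 ± 0.10), the growth factor receptor Csf1r (-0.21 ± 0.09) and the lysosomal Cd68 (-0.16 ± 0.08; SE). The mean log2 ratio over the 13 markers ran from -0.49 to 0.34 with a median of -0.08 in GLU+GAL mice, against -0.09 to 0.73 with a median of 0.13 in GLU mice. In bulk tissue, fewer cells of a type and less RNA per cell cannot be told apart.

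Saa3 followed this marker mean across the 24 mice at r = 0.792 (rho = 0.688, permutation p adjusted over 4 relations 4e-05). Without GLU+GAL 9 and GLU 11, the mice farthest from its median, r was 0.650, and within diets it was 0.699 in GLU+GAL mice and 0.809 in GLU mice. Saa2 gave r = 0.561 (rho = 0.503, adjusted p = 0.00856) and Saa1 r = 0.539 (rho = 0.486, adjusted p = 0.0088). Without the same 2 mice these were 0.468 and 0.413, the last with a permutation p of 0.0575, so the relation of Saa1 rests in part on them. Within GLU+GAL mice Saa2 and Saa1 gave 0.191 and 0.253, and within GLU mice 0.666 and 0.592. Saa4 gave -0.05. Within the 3 slides, Saa3 ranged from 0.772 to 0.884, Saa2 from 0.424 to 0.776 and Saa1 from 0.506 to 0.731.

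With the marker mean of each mouse in the fit as a covariate, the difference between diets was -0.32 ± 0.10 for Saa3 (unadjusted p = 0.00405 in limma), -0.26 ± 0.13 for Saa2 (0.0606), -0.22 ± 0.12 for Saa1 (0.0739) and -0.06 ± 0.08 for Saa4 (SE). All 3 inducible genes had a smaller difference with the covariate than without it, still below 0. The marker mean itself differed between diets, with a median of -0.08 in GLU+GAL and 0.13 in GLU mice. Diet and marker mean thus cannot be fully told apart in this fit. The differences of Saa1 and Saa2 were no longer past an unadjusted p of 0.05. Which of these transcripts came from which cells was not tested.

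**Figure D4:**
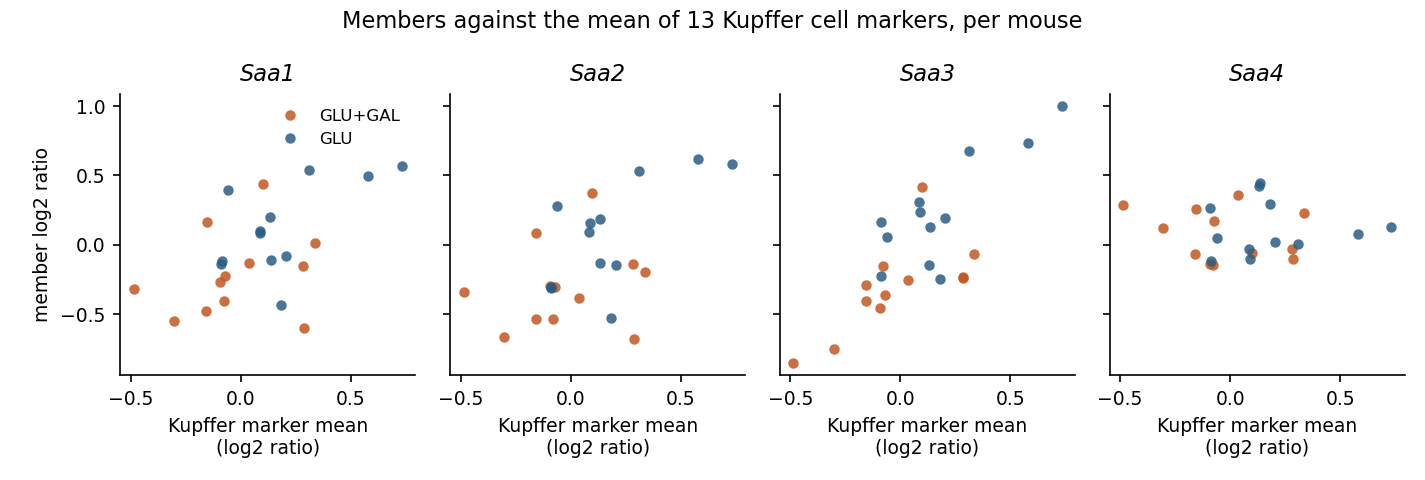
Log2 ratio of each gene against the mean log2 ratio of 13 Kupffer cell markers, 1 point per mouse, for 12 GLU+GAL and 12 GLU mice. Mice with a higher marker mean had a higher Saa3 (r = 0.792), Saa1 and Saa2 scatter more widely (0.539 and 0.561), and Saa4 shows no slope (-0.05).

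Among the signals upstream of the family, 10 of 12 cytokines and receptors were measured. All 10 were lower in GLU+GAL, beside 49.2% of all genes, with a median difference of -0.10. At an unadjusted p under 0.05, 3 were lower, beside 2.66% of all genes. Interleukin genes Il6 and Il1a were not above the filter on dim probes. Past an unadjusted p of 0.05 were Tnf, the cytokine tumour necrosis factor (-0.33 ± 0.12), Lifr, the receptor of leukaemia inhibitory factor (-0.24 ± 0.11), and Il6st, the signalling chain shared by interleukin-6 and its relatives (-0.12 ± 0.06; SE). Tnf averaged 0.10 ± 0.17 in GLU+GAL and 0.43 ± 0.40 in GLU (SD, n = 12 each). Il1b differed by -0.17 ± 0.11, with an unadjusted p of 0.122. None passed the adjusted threshold.

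The 21 kinases, adaptors and transcription factors of this pathway had smaller differences, with 17 lower and 4 higher in GLU+GAL and a median of -0.07. Over all genes, 49.2% were lower. At an unadjusted p under 0.05, 2 of the 21 were lower, beside 2.66% of all genes. Hnf4a, a transcription factor of hepatocytes (-0.16 ± 0.07), and Irak4, a kinase of interleukin-1 and Toll-like receptors (-0.08 ± 0.04), had an unadjusted p under 0.05. The NF-kappaB subunit Rela (-0.12 ± 0.06), its inhibitor Nfkbia (-0.14 ± 0.07), the factors Cebpb (-0.14 ± 0.12) and Stat3 (-0.10 ± 0.07) and the feedback inhibitor Socs3 (0.08 ± 0.15; SE) did not.

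Other positive acute phase genes, which liver makes in greater amounts in inflammation, were mostly lower as well. Of 23 measured, 20 were lower and 3 higher in GLU+GAL, the median difference was -0.17, and 11 had an unadjusted p under 0.05, all of them lower. Over all genes, 49.2% were lower in GLU+GAL and 2.66% were lower at that p. Among the 11 were the fibrinogen chains Fgb (-0.26 ± 0.06), Fga (-0.28 ± 0.08) and Fgg (-0.17 ± 0.08), the metalloreductase Steap4 (-0.22 ± 0.05), the inter-alpha-trypsin inhibitors Itih4 (-0.22 ± 0.07) and Itih3 (-0.17 ± 0.08), and the copper carrier Cp (-0.26 ± 0.08). With them stood the haem binder Hpx (-0.24 ± 0.08), the complement component C3 (-0.24 ± 0.08), the pentraxin Apcs (-0.22 ± 0.08) and the lipopolysaccharide binder Lbp (-0.15 ± 0.07; SE). Fgb, with the smallest p of the list at 0.000155, averaged 0.31 ± 0.11 in GLU+GAL and 0.57 ± 0.17 in GLU (SD, n = 12 each).

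The 3 genes of this list that were higher in GLU+GAL, none with an unadjusted p under 0.05, were the orosomucoids Orm3 (0.16 ± 0.13) and Orm2 (0.0099 ± 0.09) and the siderophore binder Lcn2 (0.12 ± 0.15; SE). The protease inhibitor Serpina3n differed by -0.0033 ± 0.08, the orosomucoid Orm1 by -0.0054 ± 0.08 and the iron hormone gene Hamp by -0.01 ± 0.15 (SE). Haptoglobin, Hp, differed by -0.16 ± 0.08 with an unadjusted p of 0.0542. None of the 23 passed the adjusted threshold in limma. Lower values were not particular to this list, since 8 of 10 hepatocyte markers, given below, were lower too, with a median difference of -0.11.

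High-density lipoprotein is the carrier of the proteins of this family. All 9 partners measured were lower in GLU+GAL, beside 49.2% of all genes, with a median difference of -0.08. At an unadjusted p under 0.05, 2 were lower, beside 2.66% of all genes. They were Apoa1, the main structural protein of high-density lipoprotein (-0.22 ± 0.10), and Apoe (-0.12 ± 0.05; SE). Lcat, which esterifies its cholesterol, differed by -0.06 ± 0.07 and Pltp, the phospholipid transfer protein, by -0.13 ± 0.12. Of the 8 genes named as receptors of serum amyloid A, 4 were lower and 4 higher and none had an unadjusted p under 0.05, the nearest being the scavenger receptor Cd36 at 0.23 ± 0.11 (p = 0.0508). The formyl peptide receptor Fpr2 differed by -0.17 ± 0.10 and Scarb1, the receptor that takes up high-density lipoprotein cholesterol, by -0.04 ± 0.06 (SE).

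Markers of other cells that can hold serum amyloid A transcripts were counted in the same way. Of 10 neutrophil markers, 6 were measured, 4 lower and 2 higher, and Mpo, Ltf, Ngp and Cxcr2 were not above the filter. Ly6g alone had an unadjusted p under 0.05 (-0.23 ± 0.06, SE), so 1 of 6 was lower at that p, beside 2.66% of all genes. The mean of the 6 ran from -0.48 to 0.70 in GLU+GAL mice, against -0.22 to 0.22 in GLU mice. Its highest value was that of GLU+GAL 11, and the next GLU+GAL mouse stood at 0.14. With that mean as a covariate the differences were -0.49 for Saa3, -0.34 for Saa2, -0.28 for Saa1 and -0.03 for Saa4. Of 8 adipocyte markers, 7 were measured, 2 lower and 5 higher, none with an unadjusted p under 0.05, and the defining marker Adipoq was not above the filter. Their mean ran from -0.35 to 0.79 in GLU+GAL mice, against -0.48 to 0.16 in GLU mice. GLU+GAL 11 again held the highest value, with the next GLU+GAL mouse at 0.09.

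Hepatocytes are the main source of Saa1 and Saa2 in liver. Their markers were lower in GLU+GAL for 8 of 10 and higher for 2, with a median difference of -0.11. Over all genes, 49.2% were lower. At an unadjusted p under 0.05, 4 of the 10 were lower, beside 2.66% of all genes. The transferrin gene Trf (-0.15 ± 0.06), Apoa1, the antitrypsin gene Serpina1a (-0.16 ± 0.07) and albumin, Alb (-0.17 ± 0.08; SE), had an unadjusted p under 0.05 and none an adjusted one. Apoa1 was also counted among the partners on high-density lipoprotein, so both counts hold it. The mean of the 10 ran from 0.08 to 0.44 with a median of 0.35 in GLU+GAL mice, against 0.09 to 0.60 with a median of 0.42 in GLU mice. The part of these shifts in the differences of Saa1, Saa2 and Saa3 was not tested.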

How the data were processed

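Cy5-labelled liver RNA of single mice was hybridised against a Cy3 pool of all mice, without dye swaps, per the labels' protocols. Agilent Feature Extraction 10.7.3.1 gave the deposited spot intensity values, per the file headers. The authors also deposited a table of log2 values for 29287 spots, used as an alternative; its scaling is unstated, each column has a median of 8.6, and all 24 columns matched the Cy5 channel of their own array best.

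Mean signals were background-corrected (normexp, offset 50) and loess-normalised within arrays in limma 3.58.1 (R 4.3.3). Outlier spots and controls were dropped, spots of a probe averaged, and 26675 of 56605 probes kept that were well above background in Cy5 on at least 6 arrays of a diet. A gene took its probe with the highest mean Cy5 signal. Of 18634 genes, 14623 had a symbol matched in RefSeq tables. The difference GLU+GAL minus GLU was tested with lmFit and eBayes, 2-sided, with Benjamini-Hochberg adjustment over all genes, and correlations with 2-sided permutation tests. The steps were tested on simulated data. The labels do not say whether litters were shared.

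Named were all members, all genes of the pathway and marker lists at an unadjusted p under 0.05 with others of those lists, and the 5 genes most like each member. The members and lists were chosen with earlier results of these data known. Same-numbered mice of the 2 diets deviated together at r from -0.38 to 0.52, so the numbers were not taken as pairs.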

Additional observations from a re-analysis of the deposited data

How the results depend on the processing

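Over all alternatives the differences of Saa1, Saa2 and Saa3 stayed below 0 and no member passed the adjusted threshold. Saa4 changed direction once, at 0.20 on slide 3 alone. Outside single slides, Saa1 ranged from -0.36 to -0.22, Saa2 from -0.40 to -0.26, Saa3 from -0.63 to -0.32 and Saa4 from -0.08 to -0.0041, and adjusted p never fell below 0.111. In the deposited table they were -0.28, -0.33, -0.58 and -0.02. Leaving out 1 mouse gave -0.39 to -0.29 for Saa1, -0.45 to -0.34 for Saa2, -0.61 to -0.48 for Saa3 and -0.07 to -0.02 for Saa4. Relative to Saa4 it gave -0.36 to -0.24, -0.41 to -0.29 and -0.57 to -0.43, and intervals held 0 in 20, 18 and 0 of 24 cases. The count of genes past the adjusted threshold was 0 to 1, the 1 being Zfp787 (adjusted p = 0.0303 in limma) without GLU 3, and at an unadjusted p it ran from 378 with median centring to 1630 on slide 2, against 802.

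With the replicate number as a replicate block, the unadjusted p was 0.000601, 0.00044, 1.79e-05 and 0.519 and the adjusted p 0.329, 0.329, 0.111 and 0.970 for Saa1 to Saa4, 0 genes passed the adjusted threshold and 1122 an unadjusted p of 0.05. The differences relative to Saa4 then had intervals that left out 0 for all 3 genes, -0.57 to -0.0027 for Saa1, -0.65 to -0.03 for Saa2 and -0.82 to -0.18 for Saa3. With processed signals that of Saa2 was -0.68 to -0.01, and on slides 2 and 3 alone that of Saa3 held 0, at -1.08 to 0.68 and -1.47 to 0.08. Of 12 same-numbered pairs, 8 correlated above 0.1 and 4 mice correlated best with their own number, so the paired fit is only a hint.

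Saa1 with Saa3 gave 0.691 on slide 1 (adjusted p = 0.143) and 0.670 in GLU+GAL mice (0.0574), and Saa2 with Saa3 0.632 (0.163) and 0.609 (0.0785), past no adjusted threshold with 8 or 12 mice. Leaving out 1 mouse gave 0.975 to 0.983 for Saa1 with Saa2, 0.764 to 0.829 for Saa1 with Saa3 and 0.769 to 0.830 for Saa2 with Saa3. The correlations with Saa4 changed sign often, the lowest adjusted p being 0.323. For Saa1 they were -0.0559 in the deposited table, -0.0556 on slide 1, -0.34 on slide 3, -0.26 in GLU mice, -0.0183 with diet means and -0.17 with slide and diet means subtracted. For Saa2 they were 0.127 with processed signals, 0.185 with median centring, 0.361 on slide 2, 0.130 in GLU+GAL mice and 0.0594 without GLU+GAL 4 and 12. For Saa3 they were 0.0661 with median centring, 0.126 on slide 1 and 0.0868 on slide 2. Leaving out 1 mouse gave -0.0326 to 0.107, -0.0773 to 0.0540 and -0.188 to -0.0407. Without subtracting diet means, 3, 3, 2 and 3 of the 5 most similar genes of Saa1 to Saa4 were shared. Other probes of a member could not be tried, since each had 1. The cause of these changes was not tested. Leaving out both arrays, the neutrophil covariate and the counts of mice outside the other diet's range without 1 mouse were chosen after seeing the data.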

Other observations

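The genes beside the cluster on chromosome 7 were looked up after the values of the members had been seen. Hps5, a component of the machinery that forms lysosome-related organelles, differed by 0.10 ± 0.06 between GLU+GAL and GLU (SE) and correlated with Saa4 at r = 0.619, but with Saa1 at -0.05, Saa2 at -0.08 and Saa3 at -0.33, over 24 mice with diet means subtracted. Saal1, named for its likeness to the family, differed by -0.12 ± 0.06 (unadjusted p = 0.0586 in limma). Ldha, the lactate dehydrogenase subunit, differed by -0.24 ± 0.10 (unadjusted p = 0.0310 in limma) and correlated with Saa1 at -0.36 and Saa3 at -0.28. Sergef and Gtf2h1 differed by -0.0077 ± 0.08 and -0.01 ± 0.06, and Tph1 was not above the filter on dim probes. None of these genes passed the adjusted threshold, and the correlations are given as a description.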
